A study of Homo sapiens with 4 samples.

Results

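The vemurafenib plus trametinib resistant culture of the A375 line (RVT) was compared with the untreated, drug-sensitive culture (S) across pathways. All cell barcodes of the RVT and S libraries with 500 or more detected genes, and with no more than 20% mitochondrial UMIs, were used, where a UMI (unique molecular identifier) is a counted transcript molecule. This gave 9313 RVT cells and 6693 S cells, of 28640 cells that passed the same filter in the whole series and 30716 deposited barcodes. A375 is an established human melanoma line with the *BRAF* V600E mutation, grown in RPMI with fetal calf serum at 10%. RVT cells had been kept for 10 to 14 days under vemurafenib and trametinib at a dose below the IC50, and the drugs were taken off 24 h before capture, whereas S cells received no drug. The other resistant cultures, under vemurafenib alone (RV) and under vemurafenib plus cobimetinib (RVC), had the same exposure and drug-free time and are given only beside the RVT values. Each condition is 1 library made by droplet capture (Chromium v2 chemistry of 10x Genomics) from 10000 loaded cells. There is no replicate, so that conditions were not tested against each other and how much cultures vary is not known.

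Vemurafenib blocks the mutant BRAF kinase and trametinib blocks MEK, the kinase below it, and together they shut down the MAPK cascade that ends in ERK. ERK switches on its own feedback inhibitors (*DUSP* and *SPRY* genes), AP-1 factors such as *FOSL1*, and cyclin D1, which drives the exit from G1. Melanoma cells that survive these drugs are known to leave the pigment lineage programme, to deposit extracellular matrix, to cycle slowly and to rely on other receptors, and the lists below follow these programmes and the housekeeping pathways around them.

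The sums of the kept cells held 63512739 UMIs in S and 28813184 in RVT on the 32991 gene IDs listed in both tables. The median S cell had 8911 UMIs and 2117 genes and the median RVT cell 2951 UMIs and 1019 genes, with a median of 3.16% and 5.77% of UMIs on mitochondrial genes. Fewer molecules per cell and lower capture cannot be told apart here. S and RV were counted with another gene annotation than RVC and RVT. A difference of both S and RV from both RVC and RVT therefore cannot be told apart from one between annotations. The libraries of S and RVT share 84 cell barcodes (1.26% of S and 0.902% of RVT cells). Levels are UMIs per 1000000 UMIs on shared genes (CPM), with exact 95% Poisson intervals in parentheses, and ratios carry exact 95% intervals from the split of the counts. These intervals cover counting error only.

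Of the melanoma markers, *SOX10*, *S100A6*, *PRAME*, *VIM* and *AXL* were found in both libraries, *S100B* had 2072 UMIs in S but 8 in RVT, and the pigment genes *PMEL*, *MLANA*, *TYR* and *DCT* had at most 11 UMIs in either. Markers of other cell types were summed to look for foreign cells. The 9 leukocyte markers came to 1.61 CPM in S and 0.555 in RVT, with *PTPRC* and *CD3E* at 0 UMIs in both. Most of this was *FCER1G* (67 UMIs in S, 2 in RVT) and *LYZ* (32 and 13). The 7 endothelial markers came to 0.976 and 0.694, mostly *KDR* (32 and 1) and *PECAM1* (24 and 16), with *CDH5* at 0 in both. The 8 epithelial markers summed to 9.90 CPM in S and 1.80 in RVT, with *CDH1* at 0 in both. In S these were mostly *KRT14* (393 UMIs, 21 in RVT) and *CLDN4* (218 and 4), whereas *KRT19* had none in S and 26 in RVT. The 9 fibroblast markers were higher in RVT, at 47.4 CPM against 10.3 in S, of which *LUM*, the matrix proteoglycan lumican, made up 21.8 in RVT and 0.110 in S. The smooth muscle actin *ACTA2*, the largest part of the sum in S, went the other way, at 7.62 CPM in S and 3.12 in RVT. Among them *COL1A2* had no UMI in either library, *THY1* had 2 UMIs in S and none in RVT, and *COL3A1* none in S and 213 in RVT. The part of these genes in the results was not tested.

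In all, 6637 genes had a mean of at least 10 CPM over S and RVT and are called tested genes, although the ratio carries no test. A gene is called higher or lower at a ratio of at least 2-fold. Of these genes 2042 (30.8%) were called higher in RVT and 1554 (23.4%) lower, and the median log2 ratio of RVT over S was 0.29, with quartiles of -0.90 and 1.23. The spread was wide, with an SD of the log2 ratio of 1.70 across genes. On the same genes it was 0.45 for the ratio of RV to S and 1.504 for that of RVC to S. For the ratio of RVT to RVC it was 1.16. Scaling by TMM, which sets the libraries by their less changed genes, lowered each log2 ratio by 0.44 and, since the filter was applied to the scaled levels, also changed which genes passed it. It put the median gene at -0.20, with 1253 genes higher and 2087 lower, so that the higher genes made up 37.5% of the called ones instead of 56.8%. List medians are therefore read against the median of all tested genes, which after TMM scaling is -0.20 and not 0.

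**Figure D1:**
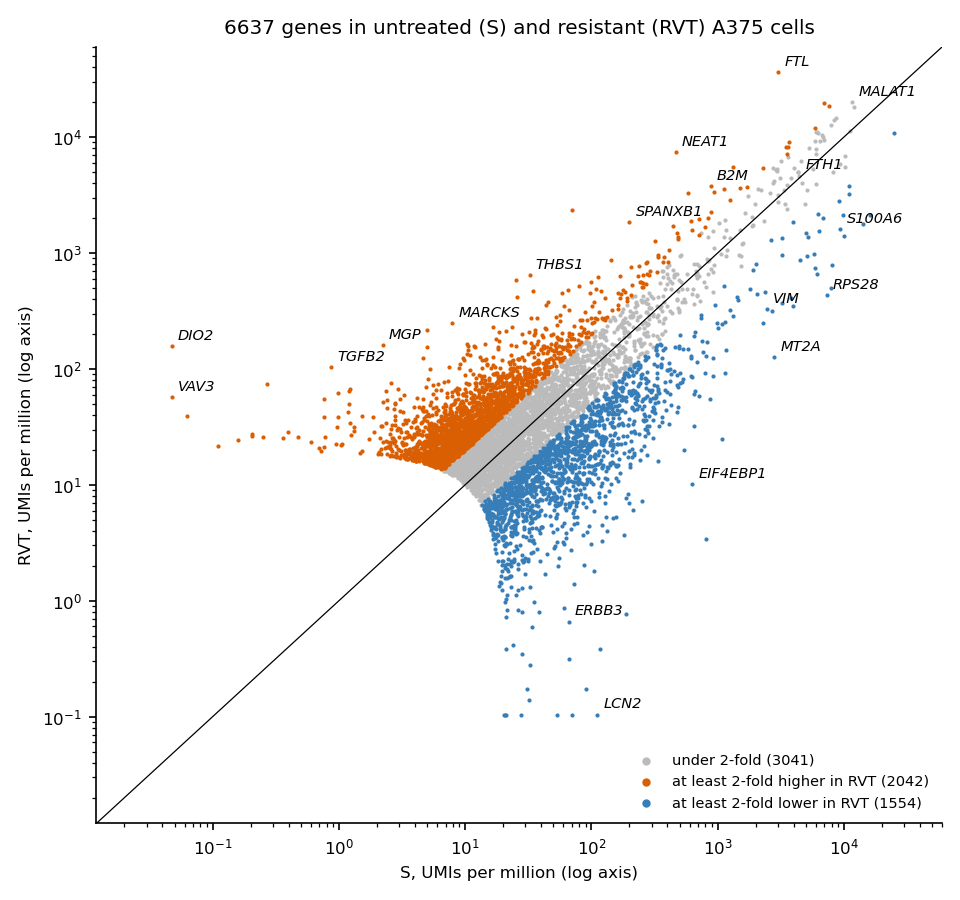
Level of each of the 6637 tested genes in S (horizontal) and RVT (vertical), in CPM on log axes, a level of under 3 UMIs being drawn at 3 UMIs, with genes at least 2-fold higher in RVT in orange, at least 2-fold lower in blue and the line of equality in black. *DIO2* and *VAV3* lie far above the line near the left edge, *FTL* is the highest labelled gene in RVT at 36238 CPM, and *LCN2* lies at the bottom with 0.104 CPM in RVT.

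The largest rises, among genes that reached 50 CPM in S or RVT, were led by *DIO2*, the deiodinase that turns the thyroid prohormone T4 into active T3. *DIO2* had 1 UMI in S, 0.0181 CPM in RV, 1.34 in RVC and 158 (153 to 163) in RVT, a ratio of 10032 (1799.6 to 396319). *VAV3*, a guanine nucleotide exchange factor, had 3 UMIs in S, none in RVC and 56.8 CPM in RVT, a ratio of 1202 (411 to 5835). No other library had more than 1.34 CPM of either gene. *TGFB2*, the ligand TGF-β2, was at 0.866 CPM in S and 104 (100.3 to 108) in RVT, with 0.652 in RV and 18.5 in RVC, and *C1S*, a protease of the complement cascade, at 0.268, 0.217, 17.8 and 73.7 (70.6 to 76.9) in S, RV, RVC and RVT. *MGP*, the matrix Gla protein that restrains calcification, had 2.22 CPM in S and 161 (156 to 166) in RVT, with 1.70 in RV and 0.402 in RVC. *ST8SIA4*, a polysialyltransferase, reached 61.6 CPM from 0.992 in S, the protease inhibitor *SLPI* 67.4 from 1.23, the netrin-like *NTNG1* 64.0 from 1.20 and *BASP1*, a membrane protein of growing nerve ends, 216 from 5.02. Of the 10 largest rises only *SEPHS2*, which makes selenophosphate for selenoproteins, had about the same level in RVC (55.6 CPM) as in RVT (55.3), with 0.756 in S and 0.960 in RV, and this split follows the annotations.

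*DIO2* lies on chromosome 14 (80197527 to 80387757 of GRCh38), *VAV3* on chromosome 1 (107571160 to 107965144), *TGFB2* on chromosome 1 (218346235 to 218444619) and *MGP* on chromosome 12 (14881181 to 14885926), as GENCODE 29 gives them. Of the 10 largest rises, 7 have a promoter in the RefSeq set for GRCh38.p14, which runs from 250 bases before to 50 bases after a gene's start. A gene can have several starts and is counted if any of its promoters holds a motif, whereas shares over all promoters are per promoter, so that these are not shares of the same unit. The cyclic AMP response element TGACGTCA, which reads the same on both strands, occurs in 1 of these 7, that of *DIO2*, and in 1.85% of all 35116 promoters. It begins 96 bases before the start. The AP-1 motif TGANTCA, searched on both strands, occurs in that of *VAV3* and in 7.71% of all promoters, and for *DIO2* at another start of the gene but not in the promoter printed here. This promoter of *DIO2*, the gene with the largest rise, is at chr14:80212129-80212428 on the minus strand and is printed with the response element in capitals.
DIO2: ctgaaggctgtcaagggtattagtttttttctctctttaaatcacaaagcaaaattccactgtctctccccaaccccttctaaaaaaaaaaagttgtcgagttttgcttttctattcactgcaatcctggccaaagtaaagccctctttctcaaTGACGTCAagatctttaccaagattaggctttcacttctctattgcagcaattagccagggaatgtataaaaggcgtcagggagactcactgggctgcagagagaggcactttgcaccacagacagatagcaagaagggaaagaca
A match describes these letters only and shows no binding.

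The largest falls were led by *LCN2*, the iron-carrying lipocalin 2 of inflamed epithelia, at 111 (108 to 113) CPM in S and 3 UMIs in RVT, a 1064-fold fall (364 to 5162), with 63.6 CPM in RV and 12.8 in RVC. *SLCO4A1*, an organic anion transporter, had 118 CPM in S and 0.382 (0.191 to 0.683) in RVT, with 114 in RV and 4.64 in RVC. Its antisense RNA *SLCO4A1-AS1* fell from 70.5 CPM to 3 UMIs, and how reads were split between these partners was not tested. The long non-coding RNA *LINC01419* had 187 CPM in S and 0.764 (0.479 to 1.16) in RVT, with 0.109 in RV and 780.4 in RVC, so that it was high in S and RVC and low in RV and RVT. *ERBB3*, the neuregulin receptor of neural crest cells, had 66.1 (64.1 to 68.1) CPM in S and 0.659 (0.397 to 1.03) in RVT, with 14.1 in RV and 0.349 in RVC. *MFAP2*, a microfibril protein, fell 213-fold from 66.6 CPM, *UPP1*, which splits uridine, 69.8-fold from 60.6 CPM, and the non-coding *AL035541.1* 513-fold from 53.5 CPM. The falls of *POLR2J3* (90.8 to 0.174 CPM) and of the glycolytic enzyme *ALDOA* (817 to 3.40) are uncertain. Both genes overlap genes that only the RVC and RVT annotation lists, and another gene ID of the name *POLR2J3*, listed there only, had 269.6 CPM in RVT.

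Ratios followed sequence properties of the genes. The log2 ratio of RVT over S went down with GC content over the final 500 transcript bases (Spearman correlation -0.41 across 6637 genes, which share their libraries and are not replicates) and rose with transcript length (0.43). Among the 332 genes with the lowest GC content (22.2% to 28.8%) the median log2 ratio was 0.99, 49.1% were called higher and 7.53% lower. In the 331 genes with the highest (60.6% to 74.6%) it was -2.39, with 3.32% higher and 81.6% lower. The 331 longest transcripts (9552 bases or more) had a median of 1.33, with 63.1% called higher and 3.63% lower. The 332 of 815 to 1074 bases had one of -0.90. The 332 shortest, of 207 to 815 bases, had one of -0.10, so that the trend did not hold at the short end. For RV over S the correlations were 0.01 with GC content and -0.18 with length, and for RVC over S -0.34 and 0.28. For RVT over RVC, which share the annotation, they were -0.19 and 0.29. What sets these trends was not tested, so each result is also read after centring the ratios on the median of 20 bins of GC content. Then 1418 genes (21.4%) were called higher and 1583 (23.9%) lower, and the log2 ratio still rose with transcript length (0.29). Values after this centring thus still carry the trend with length. Where centring took a gene called at 2-fold under that ratio, or turned a called gene or a list median, its value is given.

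**Figure D2:**
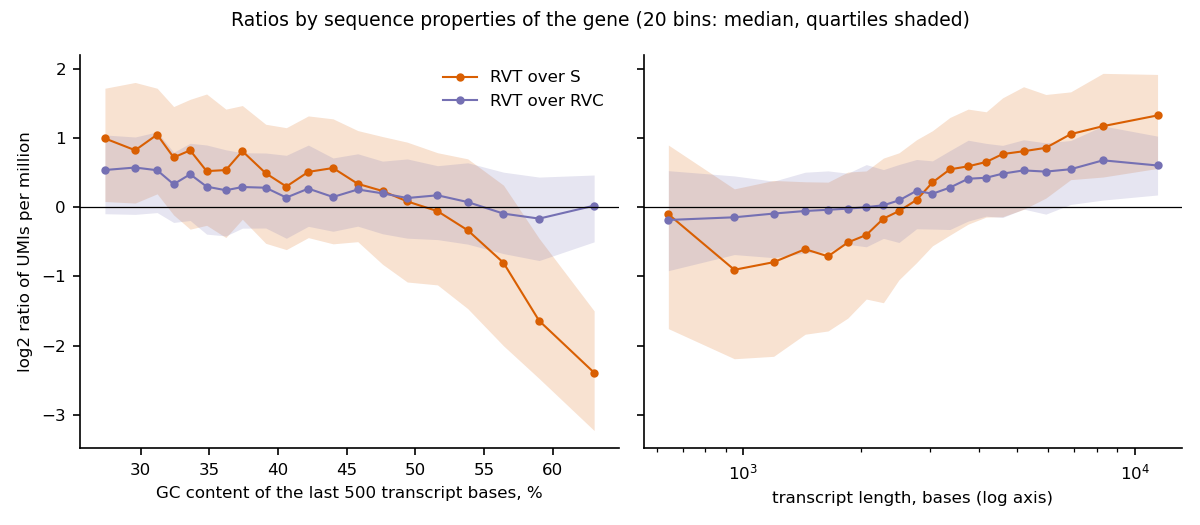
Median log2 ratio (points, with quartiles shaded) of the tested genes in 20 bins of GC content of the last 500 transcript bases (left, in percent) and of transcript length (right, in bases on a log axis), for RVT over S in orange and RVT over RVC in purple. The RVT over S line drops from 0.99 to -2.39 across the GC bins and ends at 1.33 in the bin of longest transcripts.

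Gene lists of 48 pathways were set against these backgrounds. Over all tested genes 30.8% were called higher and 23.4% lower, or 21.4% and 23.9% after centring. List counts near these shares do not set a list apart. The share called lower was above 23.4% in DNA replication (52.6%), mitosis (36%), ribosome biogenesis (48.3%) and amino acid supply (47.8%). It was 66.7% for cytokines and 71.4% for keratins. BCL2 family (58.3%), neural crest (50%), selenoprotein (46.2%), ERK output (43.75%) and nuclear oxidative phosphorylation (40.5%) lists also passed it. The share called higher was above 30.8% in extracellular matrix (57.9%), the MAPK cascade's own parts (52.9%), interferon response (50%) and cancer-testis antigens (88.9%). So it was for TGF-β and BMP (63.6%), JNK and p38 (60%), calcium (58.3%), matrix protease (54.5%) and YAP-TEAD (53.8%) lists. Further lists passed these shares too, and values after centring follow below.

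**Figure D3:**
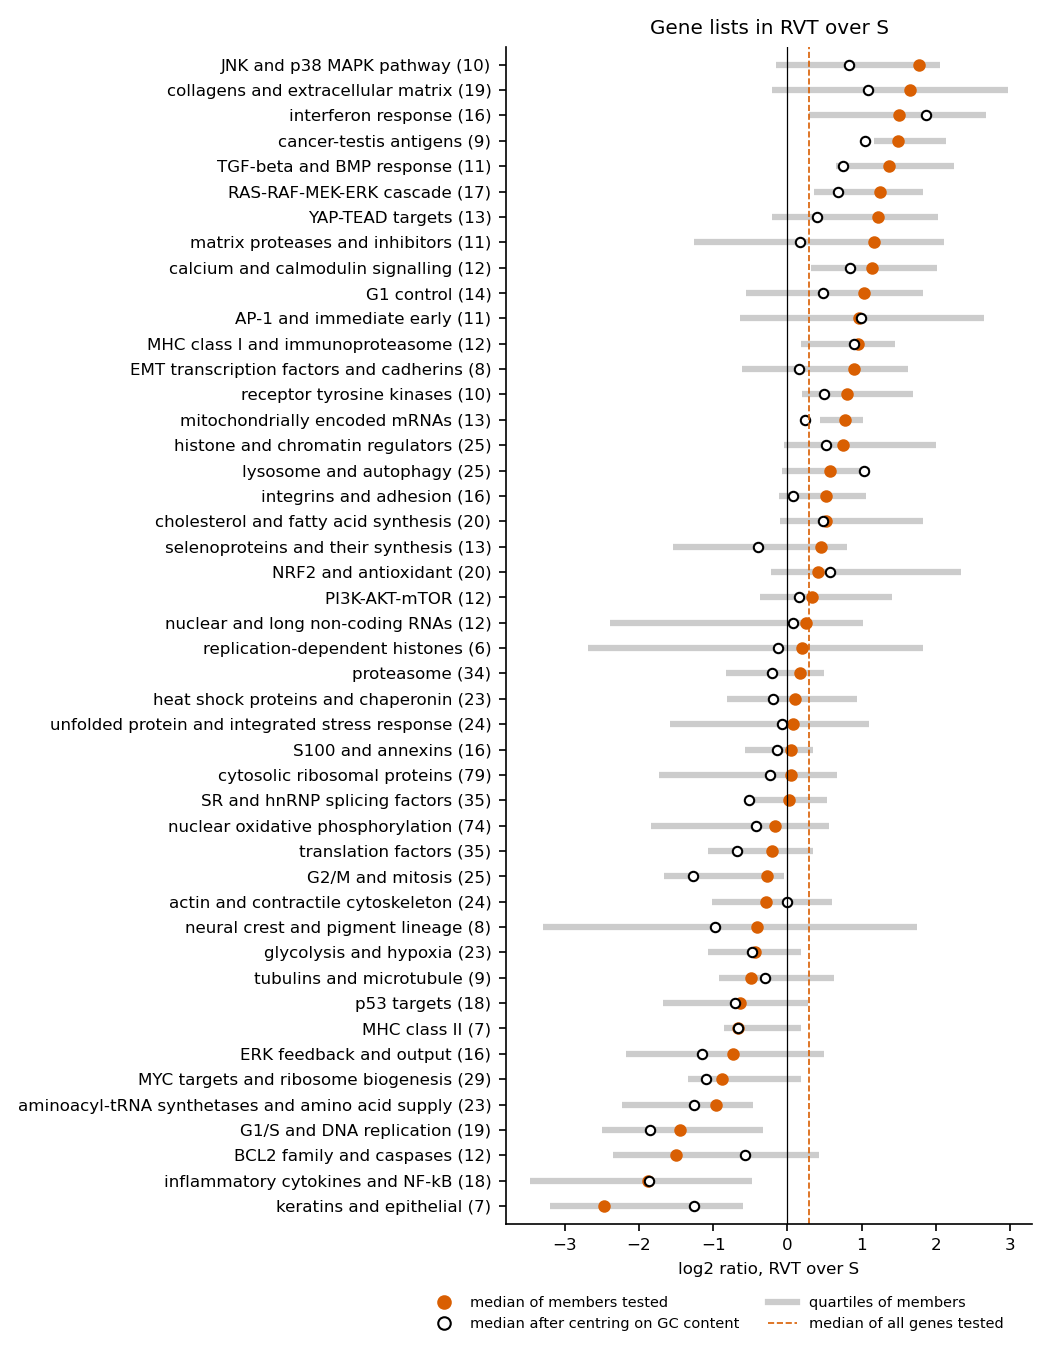
Median log2 ratio of RVT over S for each gene list with at least 5 tested members (orange points, number of members in parentheses), with the quartiles of the members as grey bars, the median after centring on GC content as open points and the median of all tested genes (0.29) as a dashed line. Interferon response keeps its place to the right and G1/S and cytokine genes to the left under both readings, whereas the medians of the proteasome and of splicing factors lie on opposite sides of 0.

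Of 16 tested genes of ERK feedback and output, measured a day after the drugs were removed, 7 were called lower, 3 higher and 6 lay within 2-fold, with a median log2 ratio of -0.73. After centring 9 were lower and 2 higher, with a median of -1.15. *FOSL1*, an AP-1 subunit held up by ERK, had 163 (160.2 to 167) CPM in S and 14.9 (13.5 to 16.3) in RVT, a fall of between 9.98-fold and 12.1-fold by its interval, with 342 in RV and 117 in RVC. *CCND1*, cyclin D1, had 216 CPM in S and 28.9 in RVT, with 342 in RV and 58.7 in RVC. Its fall of 7.46-fold was only -0.51 on the log2 scale after centring. The ERK phosphatase *DUSP6* was at 56.2 (54.3 to 58.1), 65.1, 66.5 and 22.9 (21.2 to 24.8) CPM in S, RV, RVC and RVT, and was lowest in RVT. *ETV4*, an ETS factor, fell 5.99-fold. The feedback inhibitor *SPRY2* was at 22.5 CPM in S and 19.7 in RVT, and at -1.18 on the log2 scale after centring, whereas its relative *SPRY1* rose from 14.8 to 55.0 (52.3 to 57.8), with 11.3 in RV and 2.57 in RVC. The immediate early factor *EGR1* rose from 22.2 to 115 (111 to 119), with 97.7 in RVC. *SPRED1*, another inhibitor of the pathway, was 2.33-fold higher before centring and 0.40 on the log2 scale after it. The output of the pathway thus did not move as a block.

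Of 17 tested members of the RAS-RAF-MEK-ERK cascade 9 were called higher, 2 lower and 6 lay within 2-fold, with a median of 1.25. After centring 6 were higher and 1 lower, with a median of 0.68. The adaptor *SHC1*, which links receptors to RAS, rose from 61.2 (59.3 to 63.1) CPM in S over 77.9 in RV and 145 in RVC to 348 (341 to 355) in RVT. *BRAF*, the mutated kinase, rose from 3.37 (2.93 to 3.85) to 22.5 (20.8 to 24.3), and the RAS inhibitor *NF1* from 15.4 to 58.2. *NRAS* rose 3.67-fold, which is 0.83 on the log2 scale after centring. *PEBP1*, which holds RAF back from MEK, fell from 232 to 109.8. In the JNK and p38 list 6 of 10 genes were higher and 2 lower, with the stress gene *GADD45A* falling 10.8-fold from 75.1 CPM and the kinase *MAP3K2* rising from 5.94 to 25.6. Its median was 1.77. After centring 4 were higher and 1 lower, with a median of 0.84.

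AP-1 and immediate early genes split by subunit. Of 11 genes 5 were called higher and 3 lower, with a median of 0.96. *FOSB* rose 22.9-fold (19.7 to 26.8) to 67.4 CPM, with 2.94 in S, 3.24 in RV and 41.3 in RVC, and *FOS* 7.55-fold to 67.6, with 8.96 in S, 8.01 in RV and 51.2 in RVC. *JUNB* fell from 106 CPM to 13.4 (11.9 in RVC), and *IER2* from 117 to 42.0. Both *FOS* genes were thus low in S and RV and high in RVC and RVT.

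Receptors changed unevenly. Of 10 tested receptor tyrosine kinases and their ligands 4 (40%) were called higher and 1 (10%) lower, the lower being *ERBB3*. Over all tested genes these shares were 30.8% and 23.4%. The list median was 0.80. After centring 3 were higher and 2 lower, with a median of 0.49. The ligand *PDGFC* rose 12.0-fold (10.5 to 13.8) from 3.92 CPM to 47.0, and the collagen receptor *DDR2* 3.12-fold to 100.2, with 32.1 in S, 24.4 in RV and 32.7 in RVC, which is 0.82 on the log2 scale after centring. *AXL*, a receptor often tied to drug tolerance, was at 95.6 (93.2 to 98.1) CPM in S and 99.1 (95.5 to 103) in RVT, with 169.8 in RV and 77.2 in RVC, so that the S and RVT intervals overlap. *EGFR* was under the level filter, at 4.39 CPM in S and 14.8 in RVT. Of the 12 tested PI3K-AKT-mTOR genes 4 (33.3%) were higher and 3 (25%) lower, near the shares over all genes, and after centring 3 and 3. Their median of 0.33 was -0.25 after TMM scaling, with all tested genes at -0.20. *EIF4EBP1*, the translation repressor that mTOR inactivates, fell 62.2-fold (55.5 to 70.1), from 631 CPM in S to 10.1 in RVT, with 459.8 in RV and 64.8 in RVC. *DDIT4*, a stress-induced mTOR inhibitor, fell 4.33-fold, and *RHEB*, its activator, 2.40-fold. *MTOR* itself rose from 7.07 to 33.5.

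Lineage genes moved both ways. Of 8 tested genes of the neural crest and pigment lineage 4 were called lower and 3 higher, and after centring 4 and 2. *SOX10*, the master factor of the lineage, fell 4.49-fold (4.12 to 4.91), from 87.7 CPM in S to 19.5 in RVT, with 40.2 in RV and no UMI in RVC. *S100B*, a marker of the line that was singled out after its values were seen, fell from 32.6 CPM to 8 UMIs, or 0.278 CPM. *MITF*, which turns on the pigment genes, rose from 9.62 (8.87 to 10.4) to 41.0 (38.7 to 43.4), with 20.1 in RV and 7.99 in RVC, and the melanosomal *GPNMB* rose 5.75-fold to 39.5. *TFAP2A*, a neural crest factor, rose 3.09-fold, which is 0.80 on the log2 scale after centring.

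The intermediate filament gene *VIM*, a mesenchymal marker, fell 7.39-fold (7.24 to 7.54), from 2443 CPM in S to 331 in RVT, with 2597 in RV and 561 in RVC. In the list of EMT factors and cadherins 4 of 8 genes were higher and 2 lower, and after centring 2 and 2. *CTNNB1*, the junction and Wnt protein β-catenin, rose 8.38-fold to 276 CPM, with 33.0 in S and 143 in RVC, and the E-protein *TCF4* 5.28-fold to 50.5. N-cadherin (*CDH2*) was 2.09-fold higher and fibronectin (*FN1*) 2.57-fold higher, with centred log2 ratios of 0.01 and 0.31. Of 7 tested keratin and epithelial genes 5 were called lower and none higher, with a median of -2.47, or -1.26 after centring. *KRT81*, a hair keratin, had 1155 CPM in S and 92.2 (88.7 to 95.8) in RVT, with 596 in RV and 0.0268 in RVC, and *KRT18* had 769.6, 1553, 57.7 and 139 in S, RV, RVC and RVT. *KRT8*, the partner of *KRT18*, was at 131 in S and 118 in RVT, and centring put it at 1.48 on the log2 scale.

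Of 19 tested extracellular matrix genes 11 were called higher and 3 lower, against 30.8% and 23.4% over all genes, and after centring 10 and 2. The list median was 1.65, and 1.08 after centring, and the sum of the list rose from 1125 CPM in S to 3026 in RVT, with 873 in RV and 1436 in RVC. *THBS1*, thrombospondin 1, an adhesive protein that activates latent TGF-β, had 32.4 (31.0 to 33.8) CPM in S and 649 (640.0 to 659) in RVT, with 74.8 in RV and 10.3 in RVC. The collagen-binding *SPARC* had 321, 257, 142 and 1277 (1264 to 1290.5) in S, RV, RVC and RVT. Both were thus highest in RVT and lowest in RVC. The fibrillar collagen *COL5A2* rose 8.78-fold to 87.9 CPM and the laminin *LAMC1* 4.16-fold to 198, with 42.0 in RVC. The cartilage collagen *COL9A3* fell 7.78-fold, from 219.9 CPM to 28.3, with 0.134 in RVC. *COL6A1* fell 2.39-fold, which is -0.92 on the log2 scale after centring.

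Of the genes that cut or protect the matrix 6 of 11 were called higher and 4 lower, and after centring 4 and 3. The list median of 1.16 was 0.17 after centring. The gelatinase *MMP2* rose 8.35-fold (8.02 to 8.71), from 45.5 CPM in S to 381 in RVT, with 33.1 in RV and 193 in RVC, its inhibitor *TIMP2* 5.40-fold to 91.2 and the sheddase *ADAM10* 4.68-fold to 57.8. *TIMP1* fell from 949 to 357, with 451 in RV and 1898 in RVC, which is -0.61 after centring, and the urokinase receptor *PLAUR* fell 3.20-fold. *SERPINE2*, the member with most UMIs in RVT, was at 933 CPM in S and 783 in RVT. Of 16 tested integrin and adhesion genes 5 (31.25%) were higher, near the 30.8% over all tested genes, and none lower. The list median was 0.52, or 0.08 after centring, where 6 were higher and 3 lower. The αv integrin *ITGAV* rose 7.97-fold to 68.3 CPM and *ALCAM* 5.14-fold to 44.9, whereas the hyaluronan receptor *CD44* was at 373 in S and 248 in RVT, and at -1.31 on the log2 scale after centring.

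Of the tested TGF-β and BMP genes 7 of 11 were called higher and 1 lower, with a median of 1.37, or 0.75 after centring. Beside the ligand *TGFB2*, the receptor *TGFBR2* rose 5.83-fold (5.37 to 6.34), from 12.2 CPM in S to 71.1, with 17.2 in RV and 17.1 in RVC. Of the ID factors, which block differentiation and answer to BMP signals, *ID2* rose 16.4-fold (14.0 to 19.4) to 45.0 CPM. *ID1* had 228 CPM in S and 267 in RVT, with 106 in RV and 29.5 in RVC, and *ID3* had 249, 64.1, 19.0 and 395 (388 to 403) in S, RV, RVC and RVT. Both were thus at or above the S level in RVT and well below it in RV and RVC. YAP-TEAD targets were split, with 7 of 13 higher and 2 lower and a median of 1.23. After centring 4 were higher and 2 lower, with a median of 0.40. *YAP1* itself rose 4.53-fold to 51.5 CPM and its target *CRIM1* 4.73-fold to 74.4. The muscle ankyrin *ANKRD1*, a classical target, fell 32.3-fold (26.2 to 40.2), from 99.6 CPM to 3.09, with 172 in RV and 0.215 in RVC. *WWTR1*, the partner TAZ, fell from 151 to 75.2.

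*MARCKS*, a membrane-bound substrate of protein kinase C that also binds calmodulin, rose 31.6-fold (28.8 to 34.6), from 7.86 CPM in S to 248 in RVT, with 9.49 in RV and 84.0 in RVC. Its relative *MARCKSL1* was at 153 in S and 105 in RVT, and at -1.12 on the log2 scale after centring. Only 4 of the 18 genes of that list passed the level filter, 2 of them higher. Of 12 tested calcium and calmodulin genes 7 were called higher and 1 lower, with a median of 1.14, or 0.85 after centring. *PPP3CA*, the catalytic subunit of calcineurin, rose 10.4-fold (9.70 to 11.1) to 182 CPM and the calcium pump *ATP2B4* 6.91-fold to 74.9.

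Of 19 tested G1/S and replication genes 10 were called lower and none higher. Of 25 G2/M genes 9 were called lower, none higher and 16 lay within 2-fold. Their medians were -1.44 and -0.27, and -1.85 and -1.28 after centring, where 14 and 13 were lower. *TK1*, thymidine kinase, fell between 13.4-fold and 19.1-fold by its interval, from 73.2 CPM in S to 4.58 in RVT, with 103 in RV and 40.4 in RVC. The centromere gene *CENPU* fell 17.6-fold and the primase *PRIM1* 8.55-fold. *CDC20*, the activator of the anaphase complex, fell 16.5-fold (13.8 to 19.9) to 4.20 CPM, and the ubiquitin enzyme *UBE2S* 12.5-fold to 33.3, from 416 in S. *AURKB*, a mitotic kinase, had 40.8 CPM in S and 4.30 in RVT, with 54.8 in RV and 68.2 in RVC. Not all mitotic genes were as low. *MKI67* had 28.5 CPM in S and 23.7 (21.9 to 25.5) in RVT, *CDK1* 20.7 and 17.7, *AURKA* 25.3 and 33.5, and *CKS2* 69.8 and 129, and these 4 genes were at 70.7, 85.1, 84.4 and 502 in RVC. After centring *CDK1* was at -1.28 and *AURKA* at -0.16 on the log2 scale. The histone *HIST1H4C*, made in S phase, fell 8.68-fold, from 3217 CPM to 370.5, with 6487 in RVC, while the linker histone *HIST1H1C* rose 3.43-fold to 154. Of the 6 tested histone genes 3 were higher and 3 lower, with a median of 0.20. It was -0.13 after centring and -0.24 after TMM scaling, which put all tested genes at -0.20. The near-identical histone copies make these counts uncertain.

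Among the genes that hold or open G1, 7 of 14 were called higher and 3 lower, with a median of 1.03. After centring 3 were higher and 3 lower, with a median of 0.48. The CDK inhibitors *CDKN2C* (p18) and *CDKN1B* (p27) rose, the first 7.43-fold (6.89 to 8.02) to 102 CPM and the second 4.85-fold (4.39 to 5.35) to 44.9, with 8.82 in RVC. *CDKN1A* (p21) was at 102 CPM in S and 114 (110.1 to 118) in RVT, with 247 in RV and 133 in RVC. The demethylase *KDM5B*, a marker of slow-cycling melanoma cells, rose 4.62-fold (4.36 to 4.90), from 26.5 CPM in S to 122, with 22.9 in RV and 40.1 in RVC. Its transcript (10341 bases) is in the bin of longest transcripts, where 63.1% of all genes were called higher. The lower genes were *CCND1*, *CDK4* (281 to 127 CPM) and *E2F4* (81.8 to 26.8). Of 18 tested p53 targets 7 were lower and 2 higher, with a median of -0.63. *ZMAT3* rose 4.47-fold, *MDM2* differed by 1.41-fold, and the apoptosis gene *BAX* fell 4.97-fold, which is -0.67 on the log2 scale after centring.

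Of 29 tested MYC target and ribosome biogenesis genes 14 were called lower, none higher and 15 lay within 2-fold, with a median of -0.87. After centring 16 were lower and 2 higher, with a median of -1.10. The nucleolar *NPM1* fell from 2635 (2623 to 2648) CPM to 1309 (1296 to 1323), with 1941 in RV and 1705 in RVC, *NOP58* 5.62-fold to 17.1 and the Ran partner *RANBP1* 8.81-fold to 32.4. All 79 cytosolic ribosomal protein genes were tested. Their sum was 454724 CPM in S and 397300 in RVT, with 26 called lower, 8 higher and 45 within 2-fold. After centring 29 were lower and 4 higher. The median of 0.05 was -0.23 after centring and -0.38 after TMM scaling. The single genes differed widely. *RPS28* fell 17.0-fold (16.7 to 17.3), from 7338 CPM to 432, and *RPL36* 15.8-fold, from 7965 to 503, with 1167 and 1608 in RVC. *RPL41* rose 2.81-fold to 19791, with 19733 in RVC, and *RPS10* 2.56-fold to 2259. Ribosomal protein genes have many processed copies, and how reads were shared among these was not tested. Of 35 translation factors 10 were lower and 5 higher, with a median of -0.21. *EIF1*, which helps to choose the start codon, fell 8.49-fold and *EIF2S2* 7.40-fold, whereas *EIF4G2* rose 3.03-fold, which is 0.78 on the log2 scale after centring. The elongation factor *EEF1A1* was at 5888 CPM in S and 9319 in RVT, and at -0.15 on the log2 scale after centring.

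Of 23 tested tRNA synthetases and amino acid genes 11 were called lower and none higher, with a median of -0.96, or -1.25 after centring. *PHGDH*, the first step of serine synthesis, fell 29.3-fold, from 155 CPM in S to 5.31 in RVT, with 124 in RV and 11.4 in RVC. *ASNS*, asparagine synthetase, fell 10.1-fold to 6.70, with 55.5 in RV and 8.58 in RVC. *MTHFD2*, of mitochondrial one-carbon metabolism, fell 8.54-fold to 32.3, with 214 in RV and 50.7 in RVC. *ATF4*, the factor of the integrated stress response that drives such genes, fell 3.95-fold (3.77 to 4.14), with 273, 216, 40.7 and 69.0 CPM in S, RV, RVC and RVT. Its target *TRIB3* fell 14.3-fold to 14.2, with 118 in RV and 10.0 in RVC. Over the whole list of the unfolded protein and integrated stress responses 8 of 24 genes were higher and 9 lower, and after centring 3 and 6. Of its members the chaperones *HYOU1* and *CALR* were 3.55-fold and 2.47-fold higher, *CANX* was 2.80-fold higher, or 0.67 on the log2 scale after centring, and the factor *CEBPB* rose 3.65-fold to 128 CPM. Of 23 heat shock and chaperonin genes 5 were higher and 4 lower, and after centring 3 and 7. The small heat shock protein *HSPB1* fell 10.5-fold, from 488 CPM, which is just under 2-fold after centring, and the chaperonin subunit *CCT7* 8.69-fold, whereas *HSPA8* rose 2.40-fold to 659 CPM, which is 0.96 on the log2 scale after centring. In the proteasome 4 of 34 genes were higher and 7 lower, and after centring 3 and 9, with *PSMA7* falling from 1331 CPM to 285 and *PSMB5* rising from 258 to 551. The medians of these 3 lists, 0.07, 0.10 and 0.17, were -0.07, -0.19 and -0.21 after centring. After TMM scaling they were -0.36, -0.34 and -0.26, with all tested genes at -0.20.

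Mitochondrial transcripts took a larger share of RVT UMIs. The 13 mitochondrially encoded mRNAs summed to 32077 CPM in S and 58874 in RVT, with 31032 in RV and 36660 in RVC. Of the single genes 4 were called higher, which is the share over all genes, and 3 lower, and after centring 1 and 3, with a median of 0.78, or 0.24 after centring. *MT-ND1*, a subunit of complex I, rose 4.20-fold (4.17 to 4.24), from 1326 CPM to 5575, and *MT-CO3* of complex IV 2.47-fold to 9055, which is 0.96 on the log2 scale after centring. *MT-ND3* fell 2.50-fold and *MT-ND4L* 3.17-fold. Barcodes with over 20% of such UMIs had been removed from both libraries. Of 74 nuclear genes of oxidative phosphorylation 30 were called lower and 13 higher, with a median of -0.16. After centring 24 were lower and 6 higher, with a median of -0.42. The lower ones include *NDUFS7* (11.7-fold) and *NDUFB7* (8.79-fold), for which the centred log2 ratios were -1.15 and -0.75, and the higher ones *ATP5MC1* (3.22-fold, to 766 CPM) and *NDUFA4* (3.03-fold, to 1873 CPM, 0.79 after centring). Of 23 glycolysis and hypoxia genes 6 (26.1%) were lower, near the 23.4% over all genes, and 2 higher, with a median of -0.43. After centring 7 were lower and 1 higher. The sum of the list fell from 17706 CPM to 7443, mostly through *GAPDH*, and it includes *ALDOA*, whose fall is uncertain. *GAPDH* had 11093 CPM in S and 3265 (3244 to 3286) in RVT, with 11453 in RV and 7869 in RVC. This 3.40-fold fall was -0.96 on the log2 scale after centring. *ENO1* had 1137, 1353, 1078 and 256 in S, RV, RVC and RVT. The prolyl hydroxylase *P4HA1* was 2.91-fold higher, or 0.49 after centring.

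The NRF2 and antioxidant list summed to 11090 CPM in S and 45259 in RVT, with 13046 in RV and 32382 in RVC, and most of this rise was that of *FTL* alone. *FTL*, the ferritin light chain, had 3019.7 (3006 to 3033) CPM in S and 36238 (36168 to 36307) in RVT, a 12.0-fold rise, with 2954 in RV and 25711 in RVC, while the heavy chain *FTH1* had 4440.1, 6015, 1268 and 4656 in S, RV, RVC and RVT. After centring *FTH1* was at 2.46 on the log2 scale. *FTL* was low in S and RV and high in RVC and RVT. This split follows the annotations, as do those of *B2M*, *MYL6* and *PFN1* below. So do those of other genes named in this report, among them *VIM*, *ATF4*, *PHGDH*, *FOSB*, *FOS*, *GCLM* and *MMP2*. The part of the annotations was not tested. *TXNRD1*, thioredoxin reductase, rose 16.2-fold (15.4 to 17.1), with 26.0, 29.2, 137 and 421 (413 to 428) CPM in S, RV, RVC and RVT. *GCLM*, a subunit of the enzyme that starts glutathione synthesis, rose 14.2-fold to 39.3, with 3.60 in RV and 29.2 in RVC. The reductase *AKR1C2* rose 23.2-fold to 51.6, with 5.79 in RVC. *NQO1*, also an NRF2 target, was at 262 CPM in S and 166 in RVT, and *GPX4*, the lipid peroxide reductase, fell 6.50-fold to 51.5. Of 20 tested members 8 were called higher and 2 lower. The median of 0.42 was 0.58 after centring. After TMM scaling it was -0.16, just above the -0.20 of all tested genes.

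The antioxidant response element is the site through which NRF2 acts. Its core TGACNNNGC was searched on both strands. Of the 17 members of this list with a RefSeq promoter, 4 hold it in any of theirs, *GCLM*, *TXNRD1*, *ME1* and *PGD*. So do 3 of the 5 genes with a promoter among the 10 largest falls. It occurs in 13.3% of all promoters, which is counted per promoter and not per gene. The promoter of *GCLM*, at chr1:93909381-93909680 on the minus strand, is shown with its match in capitals, which begins 34 bases before the start.
GCLM: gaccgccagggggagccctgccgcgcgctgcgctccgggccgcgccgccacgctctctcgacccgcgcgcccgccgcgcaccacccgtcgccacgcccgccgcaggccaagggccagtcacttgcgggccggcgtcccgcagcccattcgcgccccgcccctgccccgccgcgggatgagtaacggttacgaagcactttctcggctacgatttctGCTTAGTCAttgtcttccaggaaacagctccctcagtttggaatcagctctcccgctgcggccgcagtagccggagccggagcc
Whether these letters are bound in RVT cells was not measured.

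Of 13 tested selenoprotein genes 3 were called higher, *DIO2*, *SEPHS2* and *TXNRD1*, and 6 lower, among them *GPX4*, *SELENOS* (3.59-fold) and *SELENOH* (2.91-fold). After centring 5 were higher and 5 lower, and the median of 0.45 was -0.40. The metallothionein *MT2A*, which binds zinc and copper, had 2813 (2800.1 to 2826) CPM in S and 126 (122 to 130.4) in RVT, a 22.3-fold fall, with 5887 in RV and 1305 in RVC, while *MT1X* was at 95.7 in S and 161 in RVT. Of 25 lysosome and autophagy genes 8 (32%) were higher, near the 30.8% over all genes, and 1 lower. After centring 14 were higher and 1 lower, and the median of 0.58 was 1.03. The membrane protein *LAMP1* rose 4.53-fold to 72.0 CPM. The protease *CTSD* was 2.06-fold lower but came out higher after centring, at 1.35 on the log2 scale. Cholesterol and fatty acid synthesis had 8 of 20 genes higher and 1 lower, with a median of 0.51. After TMM scaling it was -0.12, just above the -0.20 of all tested genes. *MSMO1* rose 10.3-fold (8.93 to 12.0) to 36.6 CPM, *HMGCS1*, the first step of the branch to cholesterol, 9.62-fold (8.12 to 11.4) to 25.4, and *ACLY*, which supplies acetyl-CoA, 4.60-fold to 123.

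Of 12 tested MHC class I and immunoproteasome genes 6 were called higher and 1 lower, with a median of 0.96, or 0.89 after centring. *B2M*, the common light chain, had 882 (875 to 889.8) CPM in S and 3794 (3771 to 3816) in RVT, with 1045 in RV and 3066 in RVC, and *HLA-B*, whose reads are hard to split from its relatives, had 114, 107, 430.0 and 619.9 in S, RV, RVC and RVT. The immunoproteasome subunit *PSMB9* fell 2.33-fold. In class II 1 of 7 genes was higher and 1 lower. *CD74*, the invariant chain, was at 811, 258, 163 and 513 CPM in S, RV, RVC and RVT, and *HLA-DRA* at 111, 26.9, 12.9 and 83.7, so that both stood nearer to S in RVT than in RV and RVC. The interferon response list had 8 of 16 genes higher and 2 lower, with a median of 1.51, or 1.87 after centring. After TMM scaling, with all tested genes at -0.20, the median of the members that then passed the filter was 0.37. *STAT2*, which carries the signal of type I interferons, rose 11.8-fold (10.5 to 13.5), from 4.66 CPM in S to 55.2, with 5.34 in RV and 13.9 in RVC. The antiviral exonuclease *ISG20* fell 13.5-fold to 8.57, and *IFITM3*, the member with most UMIs in S, was at 359.5 in S and 351 in RVT, and at 1.60 on the log2 scale after centring.

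Of 18 tested cytokine and NF-κB genes 12 were called lower and 1 higher, with a median of -1.88, or -1.87 after centring. The neutrophil chemokine *CXCL8* had 86.0 (83.7 to 88.3) CPM in S and 6.94 (6.01 to 7.97) in RVT, with 55.5 in RV and 1006 in RVC, so that it was lowest in RVT and highest in RVC. *CXCL3* fell 25.4-fold (19.1 to 34.4) to 1.70 CPM and the receptor of TWEAK, *TNFRSF12A*, 11.3-fold to 42.4. *PTGS2*, cyclooxygenase 2, was the higher gene and rose 17.7-fold (15.2 to 20.9), from 2.79 CPM to 49.4, with 0.398 in RV and 3.81 in RVC. In the BCL2 family 7 of 12 genes were lower and 2 higher, with a median of -1.49. After centring 4 were lower and 1 higher, with a median of -0.57. The activator *BID* fell 6.33-fold to 7.84 CPM, *MCL1*, which protects from apoptosis, was at 93.2 in S and 95.2 in RVT with overlapping intervals, and *XIAP*, the caspase inhibitor, was 3.92-fold higher, or 0.98 on the log2 scale after centring.

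Some nuclear RNAs and chromatin genes were higher. *NEAT1*, the RNA scaffold of paraspeckles, had 466 (461 to 472) CPM in S and 7454 (7422 to 7485) in RVT, with 774 in RV and 1455 in RVC, and *MALAT1* of nuclear speckles had 11612, 8866, 24921 and 20058 in S, RV, RVC and RVT. List medians, with that of the fibroblast control list, were set against the counting error of their middle gene or genes. Without *NEAT1* and *MALAT1* in the library sizes 5 moved by more than this and 44 did not. Without mitochondrial and ribosomal protein genes 19 moved and 30 did not. The latter put the medians of the ribosomal proteins, unfolded protein response, S100 and splicing lists below 0. *NORAD* was 3.26-fold higher, or 0.65 on the log2 scale after centring, and the snoRNA host *SNHG8* fell 8.60-fold. Of 12 tested nuclear and long non-coding RNAs 3 were called higher and 5 lower, and after centring 2 and 5. Their median of 0.25 was -0.18 after TMM scaling, with all tested genes at -0.20. Of 25 histone and chromatin regulators 11 were higher and 3 lower, with a median of 0.75, or 0.52 after centring. *ATRX* rose 4.59-fold to 159 CPM and *ARID1B* 5.36-fold to 41.7, whereas *DNMT1*, the maintenance DNA methyltransferase, fell 3.51-fold to 26.4. *ATRX* (11167 bases) and *ARID1B* (10813) are in the bin of longest transcripts, where 63.1% of all genes were called higher. Other genes called higher also have long transcripts. *LAMC1* (7889), *FN1* (8103), *XIAP* (8591) and *ATP2B4* (8968) are in the bin of 7482 to 9545 bases, where 56.9% were called higher. Of 35 splicing factors 5 were higher and 2 lower, and after centring none and 9. Their median of 0.02 was -0.51 after centring and -0.42 after TMM scaling. Of 9 tested cancer-testis antigens, germline genes that tumours express, 8 were called higher and none lower, and after centring 5 and none, with a median of 1.49, or 1.04. *SPANXB1* had 200.3 (197 to 204) CPM in S and 1850.4 (1835 to 1866) in RVT, with 1302 in RV and 0.215 in RVC, and *SPANXC* 34.6, 188, 0.0536 and 470.0 in S, RV, RVC and RVT, so that both were high in RV and RVT and all but absent in RVC. The SPANX genes are near-identical copies and their counts are uncertain. *PRAME* differed by 1.94-fold.

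Among the actin genes 5 of 24 were called higher and 6 lower, with a median of -0.29. Profilin (*PFN1*) fell 9.17-fold (8.96 to 9.39), from 2273 CPM in S to 248 in RVT, with 2664 in RV and 289.5 in RVC, and cofilin (*CFL1*) 3.37-fold. The myosin light chain *MYL6* rose 5.64-fold to 3289, with 3339 in RVC, and *TMSB4X* 3.10-fold to 1483, whereas *TMSB10* was at 3035 and 2769. *ACTN4* fell 2.83-fold but lay at 0.14 on the log2 scale after centring. Of 9 tubulin genes 2 were higher and 1 lower, *TUBA1A* rising 3.56-fold to 134 CPM and *TUBB4B* falling 2.14-fold to 58.7, which is -0.30 on the log2 scale after centring. *TUBA1B*, the tubulin with most UMIs, was at 927 CPM in S and 464 in RVT, just under 2-fold, and at -1.08 on the log2 scale after centring. Of 16 S100 and annexin genes 2 were higher and 4 lower, with a median of 0.06. It was -0.14 after centring and -0.38 after TMM scaling. *S100A6*, a calcium-binding protein of melanoma, had 9388 (9364 to 9412) CPM in S and 1606 (1591 to 1621) in RVT, with 14148 in RV and 5703 in RVC, and *S100A10* and *S100A16* fell 4.00-fold and 5.96-fold. *ANXA6* rose 2.54-fold to 55.5.

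**Figure D4:**
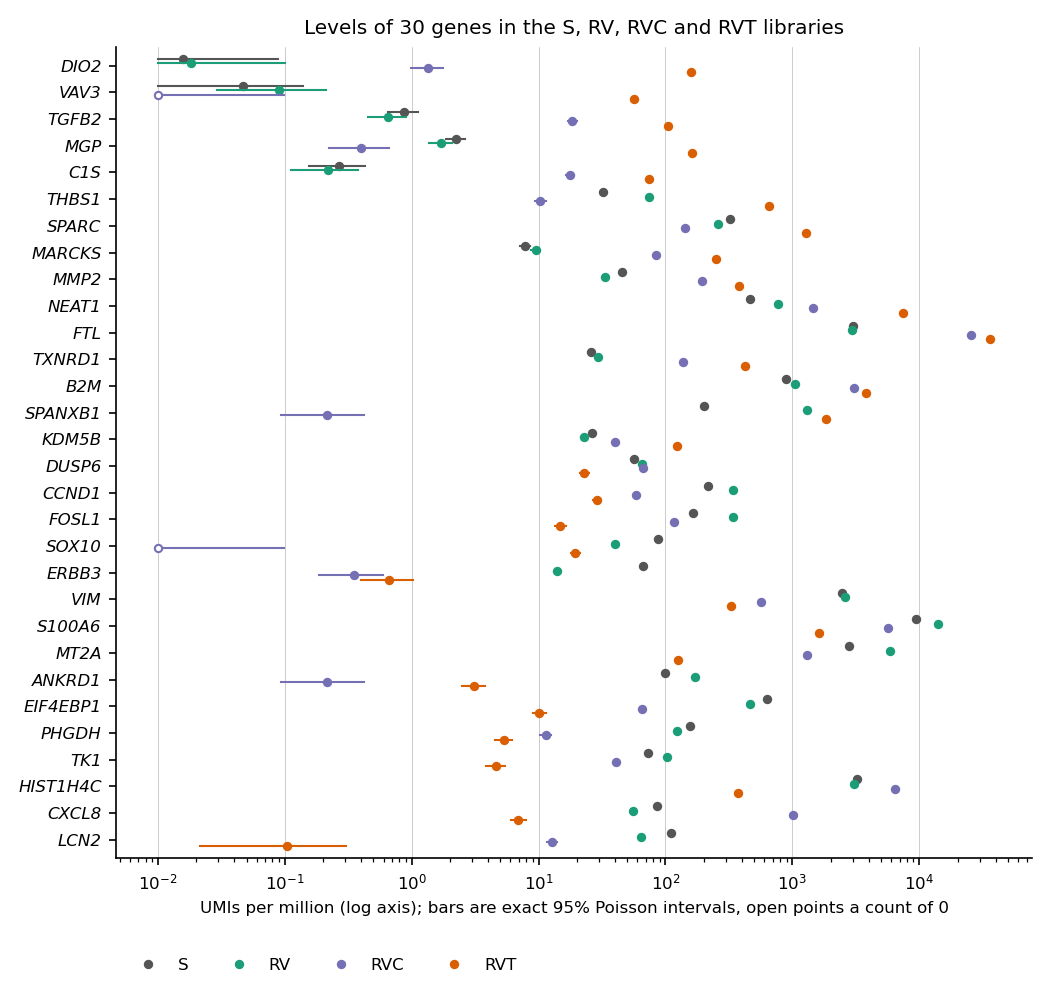
Levels of 30 genes in the S (grey), RV (green), RVC (purple) and RVT (orange) libraries in CPM on a log axis, with exact 95% Poisson intervals as bars and a count of 0 as an open point at the left edge. *THBS1* and *NEAT1* have their highest level in RVT, *CXCL8* and *HIST1H4C* theirs in RVC, and *SOX10* and *VAV3* have an open point in RVC.

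The shares of cells in which a gene was seen were compared after each cell was thinned at random to 1500 UMIs, which left out 855 RVT cells and no S cell. *DIO2* was seen in 16.3% of RVT cells and in none of 6693 S cells, which allows a share of cells with a UMI of up to 0.0448% (3 cells of the total), and in 25.4% and 0.0149% without thinning. With its UMIs spread evenly over the thinned cells, *DIO2* would have been seen in 21.3% of RVT cells. *NEAT1* was seen in 99.8% of RVT cells and 38.2% of S cells (99.97% and 81.2% without thinning), and took a median of 0.733% of the UMIs of a thinned RVT cell, with quartiles of 0.467% and 1.00%. *THBS1* was seen in 50.7% of RVT cells and 4.51% of S cells (67.2% and 19.2% unthinned), where an even spread would give 63.2% in RVT. *TXNRD1* was seen in 44.4% and 3.29% (63.8% and 20.8%), and *MARCKS* in 30.7% and 1.05% (50.1% and 6.86%). Of the falling genes, *VIM* was seen in 37.1% of RVT and 96.0% of S cells (57.1% and 99.97% unthinned), *ERBB3* in 0.0828% and 10.1% (0.204% and 40.1%), and *FOSL1* in 2.00% and 19.2% (4.10% and 60.1%). At equal UMIs per cell these shares largely restate the levels. The share due to free RNA was not measured, since no cell type known to lack these genes is in the cultures.

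**Figure D5:**
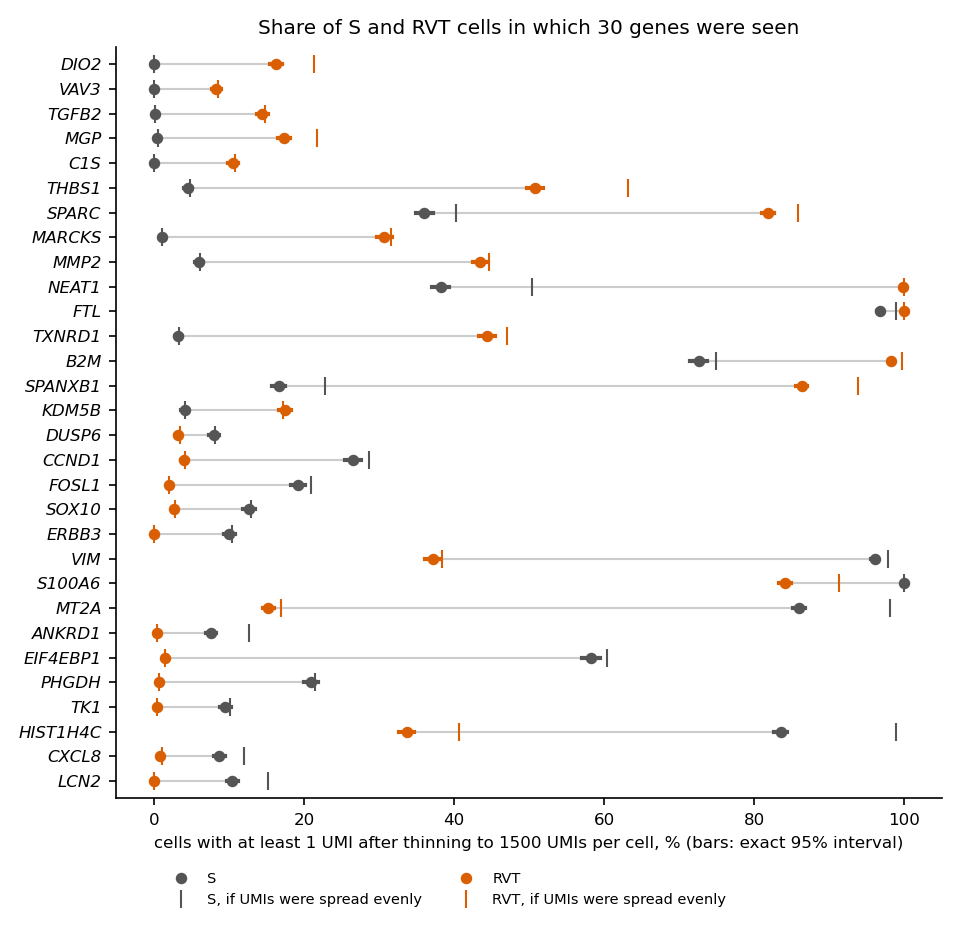
Share of S cells (grey) and RVT cells (orange) with at least 1 UMI of 30 genes, in percent, after thinning each cell to 1500 UMIs, with exact 95% intervals as thick bars and, as ticks, the share expected if the gene's UMIs were spread evenly over the cells. *DIO2*, *THBS1* and *MARCKS* lie to the right in RVT, and *VIM*, *S100A6* and *HIST1H4C* to the left.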

How the data were processed

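Gene-by-cell tables of UMI counts, deposited by the authors for each library, were used as raw whole numbers. Per the labels, reads were processed with Cell Ranger (version not given in the sources used here) on GRCh38 and bcl2fastq 2.20.0.422. The annotation of each table is not given in the sources used here. The S and RV tables listed 703 gene IDs that the RVC and RVT tables did not, which in turn listed 547 others, and the 32991 IDs in both were used. GENCODE 29 gave positions, transcript length and GC content. Barcodes with at least 500 genes and at most 20% mitochondrial UMIs were kept, and their UMIs were summed per library and scaled to 1000000 (CPM). Counts of 0 were taken at 3 UMIs. Genes with a mean of at least 10 CPM were compared. No test was run, as each condition is 1 library, and a ratio of 2 was the call. Exact intervals were at the 95% level. Doublets were kept in the main values. As an alternative, the barcodes with the highest scrublet scores (358 in S, 694 in RVT) were removed, since the tool's own threshold marked only 4 and 1.

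The gene lists and the members described were chosen with earlier results of these data known. Named genes were the 10 largest rises and falls among genes that reached 50 CPM in S or RVT, in each list the 3 highest and 3 lowest ratios among genes with a mean of at least 20 CPM, the member with most UMIs in each library, and a fixed set of anchor genes. Control marker genes are given as levels only. Some genes that this rule names are not reported here. Shares of cells used a random thinning to 1500 UMIs per cell (seed 1). The scripts for ratios, intervals and centring were checked on simulated counts with known ratios. Python 3.11.15, numpy 2.4.6, pandas 2.3.3, scipy 1.17.1, scanpy 1.11.5, matplotlib 3.10.9 and, for TMM, edgeR 4.0.16 in R 4.3.3 were used. The alternatives covered cell filters, doublets, library scaling, centring on GC content, level filters, the pseudocount, overlapping genes and the thinning. Centring on GC content and then on transcript length was added after seeing the data.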

Additional observations from a re-analysis of the deposited data

Results flagged for a closer look

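Some signal lay in data that the comparison of RVT and S did not use. Gene IDs listed only with the annotation of the S and RV tables held 0.110% of S UMIs, led by *GPX1*, glutathione peroxidase 1, with 31751 UMIs. IDs listed only with the annotation of the RVC and RVT tables held 0.0575% of RVT UMIs, led by another ID of the name *POLR2J3* with 7773 UMIs. The level of these genes in the other library was not measured.

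Of the RVT barcodes 10.7% lay outside the cell filter. The 1084 barcodes with under 500 genes had a median of 755 UMIs, with 20.4% of their summed UMIs on mitochondrial genes against 5.89% in the kept cells. In these barcodes *NEAT1* was at 24111 CPM and *DIO2* at 144 CPM, against 7454 and 158 in the kept cells.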

How the results depend on the processing

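With 1 library per condition neither a left-out library nor an error between cultures could be had, and RVT cells had fewer UMIs than S cells, so that low genes are measured less well there. No paired analysis was possible because each condition had 1 library. The cell filters, the removal of doublets, equal weight for every cell, a pseudocount of 1 and the removal of overlapping genes changed little in the counts of called genes and in the median over all tested genes. The same held for library sizes over all gene IDs or without *NEAT1* and *MALAT1*. Under these the counts of called genes stayed within 1.5 times and the median within the counting error of its middle gene (0.093 to 0.478). That interval is not the error of the median over all tested genes. The share of higher genes, which has no interval, was not counted as moved. Single genes and lists were less stable when set against their own counting error. At a minimum of 1000 genes per cell 49 gene ratios moved by more than it and 150 did not, and 10 list medians moved and 39 did not. With equal weight for every cell 53 gene ratios moved and 146 did not, and again 10 list medians moved and 39 did not. A pseudocount of 1 moved 42 gene ratios and left 157. Genes called higher (2042) numbered 1253 with TMM, 401 at a mean of at least 50 CPM and 1321 when centred on GC content and length. They numbered 3902 with no level filter and a pseudocount of 1 together. Genes called lower (1554) numbered 593 at 50 CPM and 2469 with no filter and a pseudocount of 1. The median log2 ratio (0.29) was -0.20 with TMM, -0.12 at 50 CPM and by construction 0.00 with each centring. It was 0.052 with no filter and a pseudocount of 1. The share of called genes that were higher (56.8%) was 37.5% with TMM and 53.6% with library sizes without mitochondrial and ribosomal genes. It was 47.3% and 46.9% centred on 20 and 10 bins of GC content, and 47.9% centred on GC content and length. At 50 CPM it was 40.3%, and with no filter and a pseudocount of 1 61.2%. Centring on 20 and 10 bins turned *CTSD* (1.35 and 0.99 on the log2 scale) and *ACTN4* (0.14 and 0.53). Centring on GC content and then on length, chosen after seeing the data, turned *CTSD* (1.77), *CDH2* (-0.18), *FN1* (-0.24), *SPRED1* (-0.16), *TUBB4B* (0.29) and the median of the matrix proteases and inhibitors (-0.073). Beyond the change of scale itself, the cause was not tested.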
